A study of Danio rerio with 45 samples.

Results

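The genes described here encode proteins of the centrosome and centriole in the zebrafish (Danio rerio), and their transcripts were followed along the animal-vegetal axis of the cleaving embryo. They were chosen by name from the count table. The names taken were the numbered cep genes, cetn, haus1 to haus8, tubg and tubgcp, cdk5rap, cntrl, cntrob, nin, ninl, sass6, stil, pcm1, ofd1, odf2 and nedd1. The genes cep350, cetn3 and pcnt were set aside because earlier results of these data had singled them out for a change of position. The rule found 56 rows with 52 gene symbols among 12670 rows, and all 56 passed the filter on low counts in every comparison. Over the 40 libraries a row held 683 to 86704 counts.

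Embryos of 3 stages were divided into 5 sections, from E, the most vegetal, to A, the most animal, and the RNA of each section was sequenced (TOMO-seq). They were collected 1, 2 and 3 hours post fertilisation (hpf), when an embryo has about 4, 64 and 1000 cells. No treatment or mutation is given in the labels, and strain and the number of embryos behind one sample are not given in the sources used here. The analysis covers 3 embryo samples each for 1 and 3 hpf and 2 for 2 hpf, named by their biological replicate number. Replicate 3 of 2 hpf was not analysed here.

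A centrosome is a pair of centrioles inside a cloud of pericentriolar material that nucleates microtubules through the gamma-tubulin ring complex. In the zebrafish the sperm brings the centrioles, while the mother supplies RNA and protein for the many centrosomes built during the rapid cleavages, before the embryo's own genome becomes active. New centrioles form when the scaffold proteins Cep192 and Cep152 recruit the kinase Plk4, which acts with Stil and Sass6 to start the cartwheel at the base of the new centriole. Older centrioles carry appendages that anchor microtubules or dock a cilium, satellites around the centrosome deliver proteins to it, and augmin nucleates microtubules from the sides of existing ones in the spindle. The cells of the early embryo lie at the animal pole on top of the yolk.

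Libraries held 1466522 to 6428496 counts at 1 hpf, 1466266 to 6566549 at 2 hpf and 1355607 to 5398317 at 3 hpf. The 56 rows took 0.513 to 0.662% of them. At 3 hpf section E was shallower than section A, with 1355607 to 2327972 counts against 4316597 to 5398317. At 2 hpf section E of replicate 2 was the shallowest library of its stage, with 1466266 counts against 6566549 in section A of that replicate. The vegetal RNAs dazl, sybu, hwa and grip2a had log2 fold changes of E over A between 4.95 and 7.24 at the 3 stages. The RNAs exd2, fbxo5 and ppp2r3b, listed as animal, had values between -4.25 and -2.92. These lists were chosen with earlier results of these data known, so the animal values are no independent check of the section labels. Of the marker genes for other cells, 2 of 9 for ovarian follicle cells had a row (gsdf and lhcgr) and neither passed the test between E and A at any stage. Their summed level was 0 to 11.8 CPM over the libraries. At 2 hpf it reached 9.38, 9.01 and 9.68 CPM in E, B and A, but only 0.16 and 0.454 CPM in D and C. Of the 6 enveloping layer markers only grhl3, with 2 rows, was listed. Its summed level at 3 hpf was 0 CPM in all 3 E libraries and 1.11 to 9.98 CPM in the A libraries. Between them it was 0 to 24.1 CPM in D, 8.34 to 19.5 CPM in C and 3.90 to 14.7 CPM in B. At 1 hpf it was 0 CPM in E and 0 to 0.207 CPM in A. One of its rows passed as lower in E at 3 hpf and both as higher at 3 than at 1 hpf in edgeR, and the part of such cells in the results below was not tested. No yolk syncytial or maternal blood and liver marker of the lists had a row. Equal RNA amounts went into the libraries per the labels' protocols, so a level is a share of its section's RNA, in CPM (counts per 1e+06 counts). Fewer cells in a section and less RNA per cell cannot be told apart from it.

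Replicate numbers also stood apart, and 4 of the centrosome rows show how. At 1 and 3 hpf, cep44, whose product binds microtubules of the centriole wall, had 6.82 ± 2.31 CPM in the 10 libraries of replicate 3 and 24.0 ± 3.68 CPM in the 20 libraries of replicates 1 and 2 (mean ± SD). The 2 rows of pcm1, the scaffold gene of centriolar satellites, moved in opposite ways. Row pcm1 had 95.7 ± 14.3 CPM in replicate 3 and 154 ± 17.8 CPM in replicates 1 and 2, while row pcm1_1 had 112 ± 15.2 and 48.5 ± 10.7 CPM. Summed over both rows pcm1 had similar levels, at 207 ± 28.7 CPM in replicate 3 and 203 ± 25.6 CPM in the others. The only haus7 row, haus7_1, had 20.1 ± 2.77 CPM in replicate 3 and 10.1 ± 3.21 CPM in replicates 1 and 2. In the second replicate at 2 hpf, sections E, B and A had 3.91 to 6.29 CPM of cep44 and 106 to 133 CPM of pcm1_1, the levels of replicate 3. Sections D and C of the same replicate had 25.6 to 27.5 CPM of cep44 and 37.9 to 40.0 CPM of pcm1_1, the levels of replicates 1 and 2. A difference of over 2-fold between replicate 3 and the others was found in 2 of the 56 rows (3.57%), cep44 and pcm1_1, and in 9.89% of all 12670 rows. Its cause was not tested. The counts of genes called are given below also without single replicates or without the libraries in doubt where those alter them, and rows that share a symbol (cep131, cep162, haus3 and pcm1) are uncertain one by one.

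**Figure D1:**
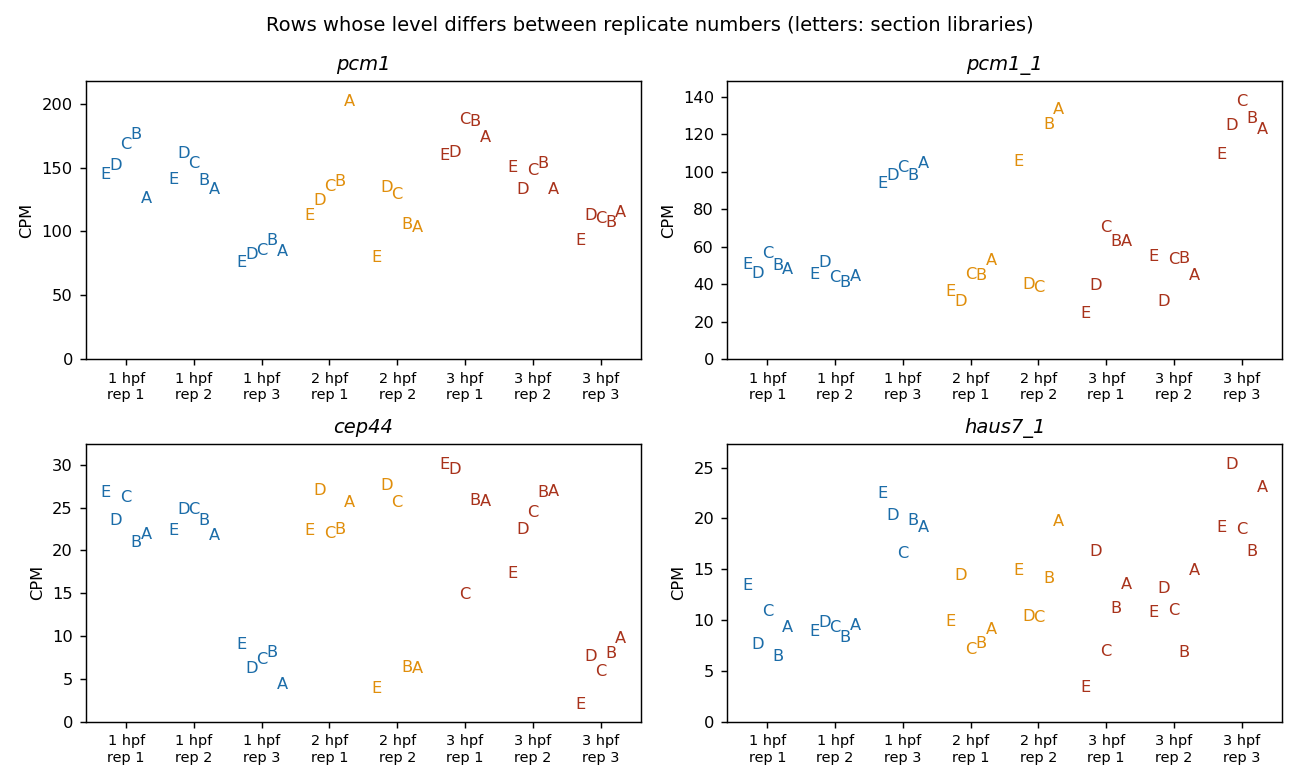
CPM (y axis, linear from 0) of 4 rows in every section library, by stage and replicate (x axis); each letter is 1 library and names its section. Replicate 3 at 1 and 3 hpf, and sections E, B and A of replicate 2 at 2 hpf, had lower cep44 and higher pcm1_1 levels than the remaining libraries.

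Most of the rows that differed between E and A were lower in the vegetal section E, and nin was the strongest exception. The other 39 of the 56 rows differed at no stage in the test given next. At 1 hpf 9 of the 56 rows (16.1%) differed between E and A, 2 higher and 7 lower in E, in edgeR's quasi-likelihood test at a Benjamini-Hochberg adjusted p of 0.05. In the same test 13.1% of all genes differed, 6.76% higher and 6.34% lower. At 2 hpf 8 rows (14.3%) differed, 1 higher and 7 lower, against 9.99% of all genes (5.12% higher and 4.87% lower). At 3 hpf 14 rows (25%) differed, 4 higher and 10 lower, against 15.6% of all genes (8.1% higher and 7.49% lower). With both directions together, the share called was near that of all genes at 1 hpf (16.1 against 13.1%) and less so at 2 hpf (14.3 against 9.99%). The 7 of 56 rows lower in E at each of these stages stand beside 6.34 and 4.87% of all genes. No test of the list against the rest was made. Over the 56 rows the median log2 fold change of E over A was -0.05, -0.12 and -0.11 at 1, 2 and 3 hpf, against 0.00, 0.02 and -0.02 over all genes tested. Scaling by library totals alone shifted the median of all genes to -0.14, -0.14 and -0.22, and the split among the 56 rows became 1 higher and 12 lower at 1 hpf, 1 and 11 at 2 hpf, and 1 and 18 at 3 hpf. The split of all genes under this scaling is not given here. The more uneven split can therefore not be read as particular to these rows.

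A total of 17 rows passed the test at 1 or more stages. Of these, 4 (cep135, cep152, cep170ba and tubgcp6) were lower in E at all 3 stages, and nin was higher in E at all 3. Another 4 passed at 2 stages and 8 at 1 stage. For these counts over stages, and for the 39 rows that passed at none, no share of all genes was computed. Whether they are unusual cannot be told from them. The E section held the lowest mean of the 5 sections in 22, 26 and 27 of the 56 rows at 1, 2 and 3 hpf (39.3, 46.4 and 48.2%), against 29.7, 31.3 and 33.4% of all rows. It held the highest mean in 12, 15 and 16 rows (21.4, 26.8 and 28.6%), against 29.8, 29.9 and 33.6% of all rows. A test for any difference among the 5 sections called 8 rows at 1 hpf (14.3%), 4 at 2 hpf (7.14%) and 10 at 3 hpf (17.9%), against 11.5, 6.49 and 12% of all genes.

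**Figure D2:**
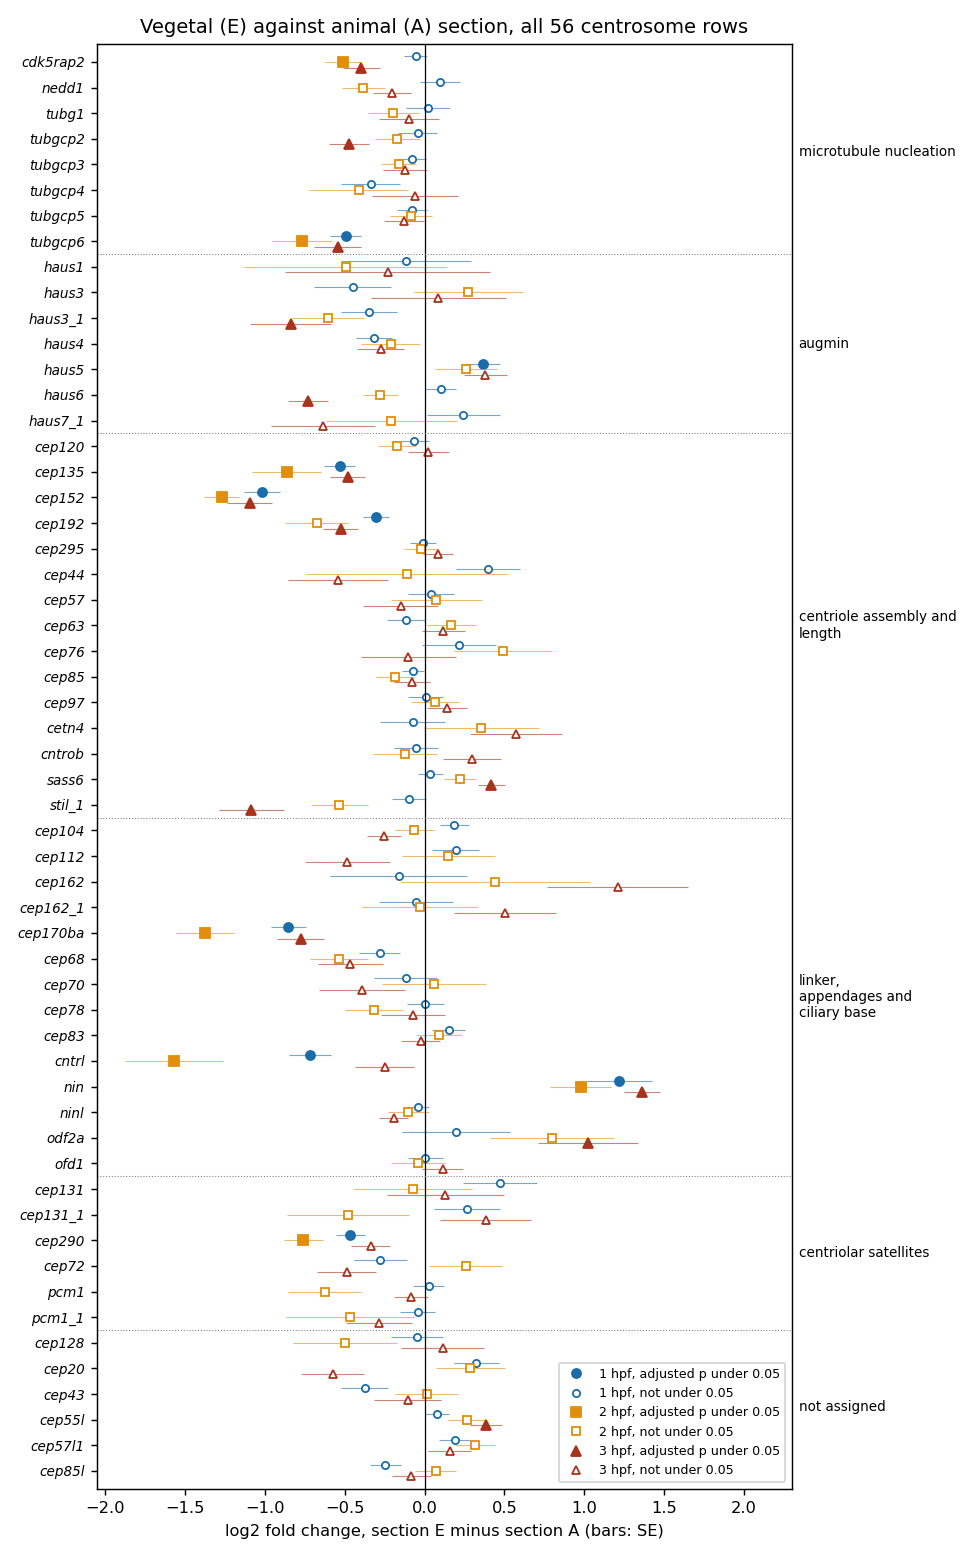
Log2 fold change of section E over section A (x axis, bars are the SE) for the 56 rows (y axis, grouped by role) at 1 hpf (circles), 2 hpf (squares) and 3 hpf (triangles); filled symbols passed the edgeR test at an adjusted p of 0.05. Filled symbols lie left of 0 at all 3 stages for cep135, cep152, cep170ba and tubgcp6 and right of 0 for nin.

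The transcript of nin was concentrated at the vegetal tip. It encodes ninein, a protein of the subdistal appendages that anchors microtubules at the older centriole. At 1 hpf section E had 757, 683 and 686 CPM in replicates 1, 2 and 3, and section A had 188, 263 and 441 CPM. At 2 hpf E had 868 and 1109 CPM and A had 477 and 514 CPM. At 3 hpf E had 1080, 902 and 1148 CPM and A had 385, 418 and 407 CPM. E lay above A in all 8 embryo samples, and the groups did not overlap at any stage. The log2 fold change of E over A was 1.22 ± 0.20 (SE) at 1 hpf (edgeR adjusted p = 0.000119), 0.98 ± 0.19 at 2 hpf (edgeR adjusted p = 0.00967) and 1.36 ± 0.11 at 3 hpf (edgeR adjusted p = 5.08e-09). The other sections differed in order between stages. At 1 hpf D had 322, 456 and 244 CPM and C had 626, 486 and 581 CPM, so that E and C were high and D and A low. At 3 hpf the means decreased from section to section toward the animal side. Those of D, C, B and A were 505, 446, 407 and 403 CPM, against 1043 CPM in E, and the highest D library, at 621 CPM, lay below the lowest E library, at 902 CPM. The call at 2 hpf was lost without replicate 2 (log2 fold change 0.86) and without section E of replicate 2 alone (0.87).

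Both cep152 and cep135, genes of the centriole duplication machinery, were lower at the vegetal tip at every stage. The transcript of cep152, which encodes a scaffold that recruits Plk4 to the parent centriole, had 217, 170 and 243 CPM in E and 384, 430 and 458 CPM in A at 1 hpf. At 2 hpf it had 226 and 181 CPM in E and 505 and 473 CPM in A, and at 3 hpf 219, 181 and 181 CPM in E and 418, 426 and 379 CPM in A. No E value reached any A value. The log2 fold changes were -1.02 ± 0.11 at 1 hpf (edgeR adjusted p = 4.53e-07), -1.27 ± 0.11 at 2 hpf (edgeR adjusted p = 6.53e-05) and -1.09 ± 0.14 at 3 hpf (edgeR adjusted p = 4.26e-06). Its means increased from section to section toward the animal side at 2 and 3 hpf, to 204, 271, 339, 436 and 489 CPM in E, D, C, B and A at 2 hpf and 193, 237, 330, 382 and 408 CPM at 3 hpf. At 1 hpf B was highest, with 487 CPM.

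The transcript of cep135, whose product belongs to the cartwheel and wall of the centriole, was lower in E by smaller amounts. At 1 hpf it had 87.2, 109 and 94.5 CPM in E and 123, 155 and 136 CPM in A. At 2 hpf E had 113 and 58.6 CPM and A had 175 and 145 CPM, and at 3 hpf E had 98.5, 100 and 89.9 CPM and A had 144, 152 and 107 CPM. The groups did not overlap. The log2 fold changes were -0.53 ± 0.10, -0.86 ± 0.22 and -0.48 ± 0.11 at 1, 2 and 3 hpf (edgeR adjusted p = 0.000263, 0.0336 and 0.00324). Without replicate 1 the value at 2 hpf was -1.31. The call at 2 hpf was lost without section E of replicate 2 (-0.56), and that at 3 hpf without replicate 2 (-0.41).

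The scaffold gene cep192, whose product recruits pericentriolar material as well as Plk4, passed the test at 1 and 3 hpf. At 3 hpf it had 165, 193 and 207 CPM in E and 249, 250 and 315 CPM in A, without overlap, and a log2 fold change of -0.53 ± 0.11 (edgeR adjusted p = 0.0014). At 1 hpf the levels were 182, 200 and 242 CPM in E and 214, 234 and 320 CPM in A, which overlap, and the log2 fold change was -0.30 ± 0.08 (edgeR adjusted p = 0.0113). At 2 hpf it was -0.68 ± 0.20 (edgeR adjusted p = 0.0661). At 2 hpf it passed under library totals (-0.83), by DESeq2 (-0.67), in 1 fit for all stages (-0.67) and without sections C and D of replicate 2 (-0.65). Without replicate 1 the value there was -0.77 and without replicate 2 it was -0.56, each from 1 embryo sample. The call at 1 hpf was lost without replicate 2 (-0.34), without replicate 3 (-0.25) and in 1 fit for all stages (-0.30). Without the replicate number as a block the calls at 1 hpf (-0.31) and 3 hpf (-0.53) were both lost.

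The partners that act next in cartwheel formation, sass6 and stil, differed between E and A at 3 hpf in opposite directions. The transcript of sass6, the cartwheel's structural protein, had 325, 290 and 305 CPM in E and 225, 218 and 240 CPM in A at 3 hpf, a log2 fold change of 0.42 ± 0.09 (edgeR adjusted p = 0.00106). At 1 hpf its section means lay between 235 and 246 CPM, and its log2 fold change was 0.04 ± 0.08. The single stil row, stil_1, had 17.5, 36.1 and 23.6 CPM in E and 50.2, 70.3 and 42.8 CPM in A at 3 hpf, a log2 fold change of -1.08 ± 0.20 (edgeR adjusted p = 0.000392). Neither gene's groups overlapped at 3 hpf. At 1 hpf stil_1 had 111, 81.3 and 85.5 CPM in E and 94.5, 107 and 91.8 CPM in A, and its log2 fold change was -0.10 ± 0.11. At 2 hpf it was -0.53 ± 0.18 and did not pass. Row stil_1 passed there under library totals (-0.69), in 1 fit for all stages (-0.54) and without sections C and D of replicate 2 (-0.54). Without replicate 2 the value was -0.78, from 1 embryo sample. Under scaling by library totals the sass6 difference kept its sign but no longer passed the test (0.21). The other members of this group, cep44, cep57, cep63, cep76, cep85, cep97, cep120, cep295, cetn4 and cntrob, did not pass at any stage. Of the 15 rows with a role in centriole assembly or length, 3 passed at 1 hpf, 2 at 2 hpf and 5 at 3 hpf (20, 13.3 and 33.3%), all lower in E apart from sass6, against 13.1, 9.99 and 15.6% of all genes.

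**Figure D3:**
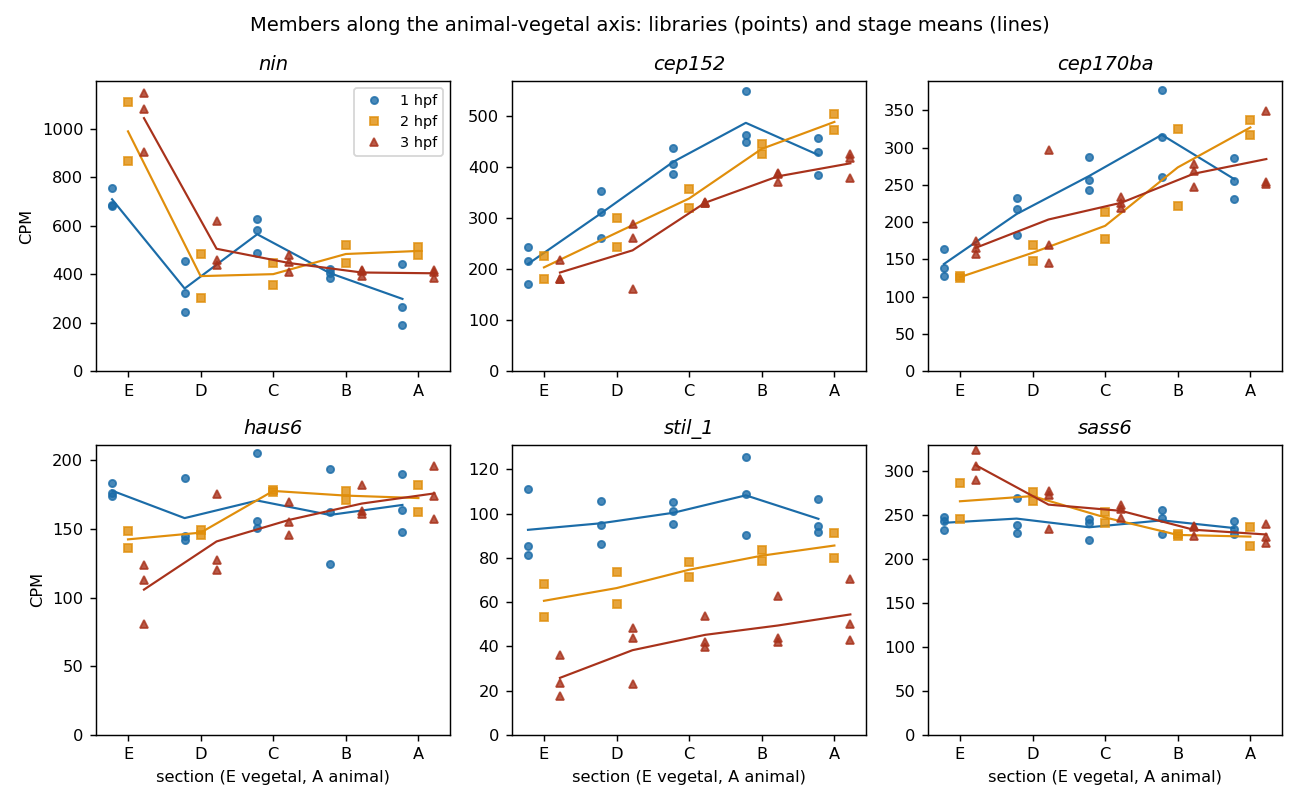
CPM (y axes, linear from 0) of 6 rows in sections E, D, C, B and A (x axis) at 1 hpf (circles), 2 hpf (squares) and 3 hpf (triangles); points are libraries and lines join the stage means. At 3 hpf the means of nin and sass6 were highest in E, and those of cep152, cep170ba, haus6 and stil_1 were lowest there. The lowest single 3 hpf library was section D of replicate 1 for cep152 (162 CPM) and cep170ba (145 CPM). Row stil_1 lay lower at 3 hpf than at 1 hpf in every section.

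Among the genes of centriole appendages, linker and ciliary base, cep170ba resembled cep152. In mammals CEP170 is a protein of the subdistal appendages. At 1 hpf cep170ba had 139, 128 and 165 CPM in E and 231, 255 and 287 CPM in A. At 2 hpf it had 127 and 125 CPM in E and 337 and 317 CPM in A, and at 3 hpf 157, 175 and 165 CPM in E and 254, 251 and 350 CPM in A. The groups were apart at each stage. The log2 fold changes were -0.85 ± 0.11 (edgeR adjusted p = 4.20e-06), -1.37 ± 0.18 (edgeR adjusted p = 0.00104) and -0.78 ± 0.15 (edgeR adjusted p = 0.000538) at 1, 2 and 3 hpf.

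The transcript of cntrl, which encodes centriolin, another protein of the older centriole, was lower in E at the first 2 stages. It had 30.8, 26.0 and 23.7 CPM in E and 55.5, 42.4 and 36.5 CPM in A at 1 hpf, and 22.3 and 7.04 CPM in E and 48.2 and 43.4 CPM in A at 2 hpf. At 3 hpf E had 45.1, 34.0 and 23.6 CPM and A had 43.2, 39.4 and 35.9 CPM, and these overlapped. The log2 fold changes were -0.71 ± 0.13 at 1 hpf (edgeR adjusted p = 0.00035), -1.57 ± 0.31 at 2 hpf (edgeR adjusted p = 0.0102) and -0.25 ± 0.18 at 3 hpf (edgeR adjusted p = 0.433). Both calls were lost in fits without the replicate number as a block (-0.72 at 1 hpf and -1.51 at 2 hpf). Without replicate 1 the value at 2 hpf was -2.62, which rests on the E library with 7.04 CPM, the shallowest of the stage at 1466266 counts.

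The transcript of odf2a, a relative of the mammalian appendage gene ODF2, was scarce and passed at 3 hpf, with 19.2, 21.6 and 14.1 CPM in E and 8.10, 6.68 and 11.8 CPM in A. These did not overlap, and the log2 fold change was 1.02 ± 0.31 (edgeR adjusted p = 0.027). Its call was lost without replicate 1 (0.94) or 2 (0.73), and under scaling by library totals (0.82). Of the 14 rows in this group 3 passed at each stage (21.4%), against 13.1, 9.99 and 15.6% of all genes. The genes ninl, a relative of nin, and ofd1, which restrains centriole length and takes part in ciliogenesis, did not pass at any.

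The gamma-tubulin ring complex showed lower vegetal levels of single subunits while the gamma-tubulin gene did not pass the test. The subunit gene tubgcp6 had 65.9, 55.6 and 79.0 CPM in E and 85.9, 90.0 and 105 CPM in A at 1 hpf, 78.1 and 50.0 CPM in E and 104 and 118 CPM in A at 2 hpf, and 49.2, 45.3 and 86.9 CPM in E and 66.6, 82.3 and 111 CPM in A at 3 hpf. E was lower than A in each of the 8 embryo samples, although the groups overlapped at 3 hpf. The log2 fold changes were -0.49 ± 0.10, -0.77 ± 0.19 and -0.54 ± 0.15 at 1, 2 and 3 hpf (edgeR adjusted p = 0.000844, 0.0319 and 0.0115). All 3 calls were lost without replicate 2, at -0.41, -0.42 and -0.39. The call at 2 hpf was also lost without section E of replicate 2 (-0.51), and the value there was -1.24 without replicate 1. The call at 3 hpf was lost without replicate 1 (-0.57) and without the replicate number as a block (-0.51).

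The subunit gene tubgcp2 passed at 3 hpf, with 65.9, 52.9 and 69.3 CPM in E and 87.5, 82.1 and 88.5 CPM in A. Its log2 fold change there was -0.47 ± 0.13 (edgeR adjusted p = 0.0119), and the groups did not overlap. The gene cdk5rap2, whose product tethers the ring complex in the pericentriolar material, had 345 and 304 CPM in E and 445 and 476 CPM in A at 2 hpf, and 377, 295 and 236 CPM in E and 459, 342 and 380 CPM in A at 3 hpf. The groups overlapped at 3 hpf, and E was lower than A in each embryo sample. The log2 fold change was -0.51 ± 0.11 at 2 hpf (edgeR adjusted p = 0.0173) and -0.40 ± 0.12 at 3 hpf (edgeR adjusted p = 0.0216), after -0.06 ± 0.07 at 1 hpf. The tubgcp2 call was lost without replicate 2 (-0.39) or 3 (-0.54). The cdk5rap2 call was lost at 2 hpf without replicate 2 (-0.37) or its section E (-0.43), and at 3 hpf without replicate 2 (-0.48) or 3 (-0.26).

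The gamma-tubulin gene tubg1 had 25.9, 58.8 and 61.8 CPM in E and 43.9, 51.6 and 61.9 CPM in A at 3 hpf. These overlapped, and the log2 fold change lay between -0.20 and 0.02 at the 3 stages without passing the test. The genes tubgcp3, tubgcp4, tubgcp5 and nedd1, whose product targets the ring complex to the centrosome and spindle, did not pass either. Of the 8 rows for microtubule nucleation, 1, 2 and 3 passed at the successive stages (12.5, 25 and 37.5%), each lower in E, against 13.1, 9.99 and 15.6% of all genes.

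Of the 7 augmin rows 1 passed at 1 hpf, none at 2 hpf (edgeR, with 2 at an unadjusted p under 0.05, and 0 by DESeq2) and 2 at 3 hpf. These are 14.3, 0 and 28.6%, against 13.1, 9.99 and 15.6% of all genes. At 2 hpf 2570 of all 12593 genes tested had an unadjusted p under 0.05. The subunit gene haus6 had 80.9, 124 and 113 CPM in E and 174, 158 and 196 CPM in A at 3 hpf, with no overlap and a log2 fold change of -0.73 ± 0.13 (edgeR adjusted p = 0.000166). Its section means at 3 hpf went up from E through D, C and B to A, at 106, 141, 157, 169 and 176 CPM. At 1 hpf haus6 had 174, 176 and 183 CPM in E and 164, 148 and 190 CPM in A, and the log2 fold change was 0.10 ± 0.10. The subunit gene haus5 had 168, 160 and 153 CPM in E and 111, 113 and 152 CPM in A at 1 hpf, a log2 fold change of 0.37 ± 0.11 (edgeR adjusted p = 0.0265). In replicate 3 its E and A levels were nearly equal. The call was lost without replicate 1 (0.25), without replicate 2 (0.29), without section A of replicate 1, the shallowest library of the stage (0.34), and under scaling by library totals (0.24). Row haus3_1 had 11.7, 18.9 and 11.6 CPM in E and 23.8, 23.6 and 27.1 CPM in A at 3 hpf, a log2 fold change of -0.84 ± 0.25 (edgeR adjusted p = 0.0267). Summed with the other haus3 row the difference was -0.50 and no longer passed. It was also lost without replicate 1 (-0.76) or 3 (-0.64). The rows haus1, haus3, haus4 and haus7_1 did not pass at any stage, and no row for haus2 or haus8 was used here.

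Of the 6 satellite rows only cep290 passed, at 1 and 2 hpf (16.7% at each, against 13.1 and 9.99% of all genes). Cep290 is best known for its place at the transition zone of cilia and also sits in satellites. It had 109, 109 and 90.0 CPM in E and 171, 140 and 120 CPM in A at 1 hpf, and 97.9 and 85.2 CPM in E and 148 and 161 CPM in A at 2 hpf. The log2 fold change was -0.46 ± 0.09 at 1 hpf (edgeR adjusted p = 0.000662), -0.76 ± 0.12 at 2 hpf (edgeR adjusted p = 0.00342) and -0.34 ± 0.12 at 3 hpf (edgeR adjusted p = 0.0634). Neither row of pcm1 passed by itself at any stage. With its 2 rows summed, pcm1 was lower in E at 2 hpf (-0.58) and passed. Row pcm1, at -0.63 ± 0.23 in the within-stage fit, also passed at 2 hpf in the fit of all stages (-0.61) and without sections C and D of replicate 2 (-0.64). Without replicate 2 its value was -0.84, from 1 embryo sample. Among the 6 rows given no role, cep55l, named after the abscission gene cep55, was higher in E at 3 hpf, with 214, 195 and 172 CPM against 147, 149 and 146 CPM in A. Its log2 fold change was 0.38 ± 0.10 (edgeR adjusted p = 0.0103), and the call was lost without replicate 1 (0.31) or 2 (0.39) and under scaling by library totals (0.18).

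The 39 rows that passed at no stage had log2 fold changes of E over A from -0.45 (haus3) to 0.47 (cep131) at 1 hpf, from -0.63 (pcm1) to 0.49 (cep76) at 2 hpf and from -0.64 (haus7_1) to 1.21 (cep162) at 3 hpf. Within 0.25 of 0 lay 29, 23 and 24 of them. The cep162 row had few counts. At 3 hpf it had 14.2, 9.17 and 13.6 CPM in E and 5.04, 7.12 and 3.99 CPM in A, which did not overlap, and its log2 fold change was 1.21 ± 0.44 (edgeR adjusted p = 0.0726). DESeq2 called this difference (1.23). The other row of the symbol, cep162_1, had 21.7, 9.71 and 15.1 CPM in E and 10.1, 13.1 and 9.09 CPM in A at 3 hpf. These overlapped, and cep162_1 passed at no stage.

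Whether the difference between E and A itself changed from 1 to 3 hpf was tested over all 40 libraries as an interaction of stage and section. Of the 56 rows 2 passed, haus6 and stil_1 (3.57%), against 0.695% of all genes (0.324% upward and 0.371% downward). An unadjusted p under 0.05 was found in 11 of the 56 rows and in 1387 of all 12668 genes tested. The genes set aside by the rule were chosen on this contrast, so the count says little about centrosome genes as a class. For haus6 the log2 fold change of E over A was lower at 3 than at 1 hpf by -0.82 ± 0.16 (edgeR adjusted p = 0.00779). For stil_1 the change was -0.98 ± 0.22 (edgeR adjusted p = 0.03). Both calls were lost in fits with 1 replicate fewer: haus6 without replicate 1 (-0.67) or 3 (-0.86), and stil_1 without replicate 1 (-0.68), 2 (-1.22) or 3 (-1.08). That of stil_1 was also lost without section A of replicate 1 at 1 hpf (-0.90). For sass6 the change was 0.39 ± 0.11 (edgeR adjusted p = 0.0805), and DESeq2 called it (0.39). The change of cep20 did not pass this edgeR test but was called by DESeq2 (-0.88) and under scaling by library totals (-0.98). Row cep20 had 34, 35 and 31 CPM in E and 27, 30 and 23 CPM in A at 1 hpf. At 3 hpf it had 24, 29 and 21 CPM in E and 41, 35 and 33 CPM in A.

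Between 1 and 2 hpf no row passed the edgeR interaction test, with 6 at an unadjusted p under 0.05, 0 called by DESeq2 and 0.0237% of all genes called by edgeR. An unadjusted p under 0.05 was found in 1014 of all 12668 genes tested. Between 2 and 3 hpf none passed either, with 9 at an unadjusted p under 0.05, 1 called by DESeq2 (cntrl) and 0.0237% of all genes called by edgeR (0.00789% upward and 0.0158% downward). Here 1332 of all 12668 genes tested had an unadjusted p under 0.05. For cntrl the change from 2 to 3 hpf was 1.26 ± 0.29 (edgeR adjusted p = 0.0728).

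For the level in a whole embryo sample, the counts of its 5 sections were added up. Deeper libraries count more in this sum, whatever the RNA content of their section. In replicate 2 at 2 hpf the sum joins sections that stood apart in cep44 and pcm1_1 levels. It held 16.6 CPM of cep44 and 83.4 CPM of pcm1_1. From 1 to 3 hpf 2 of the 56 rows passed (3.57%), both lower at 3 hpf, against 1.74% of all genes (0.379% higher and 1.37% lower). For stil_1 the 3 hpf samples had 41.0, 58.3 and 41.0 CPM, the 2 hpf samples 76.0 and 73.5 CPM and the 1 hpf samples 110, 104 and 91.5 CPM. The 3 stages did not overlap. The log2 fold change of 3 over 1 hpf was -1.12 ± 0.15 (edgeR adjusted p = 0.0238). For cep85, whose product binds STIL in human cells, the 3 hpf samples had 177, 207 and 167 CPM and the 1 hpf samples 243, 278 and 266 CPM, with 247 and 230 CPM at 2 hpf. The log2 fold change was -0.51 ± 0.09 (edgeR adjusted p = 0.0446), and its difference between E and A did not pass the test at any stage. By comparison nin and cep152, which differed between E and A at every stage, had log2 fold changes of 3 over 1 hpf of 0.04 ± 0.05 and -0.16 ± 0.05 and did not pass in edgeR. DESeq2 called the change of cep152 (-0.16) and that of ninl (0.18). The call of cep85 was lost without any 1 replicate (-0.43 to -0.56), and that of stil_1 without replicate 1 (-0.97) or 2 (-1.29).

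**Figure D4:**
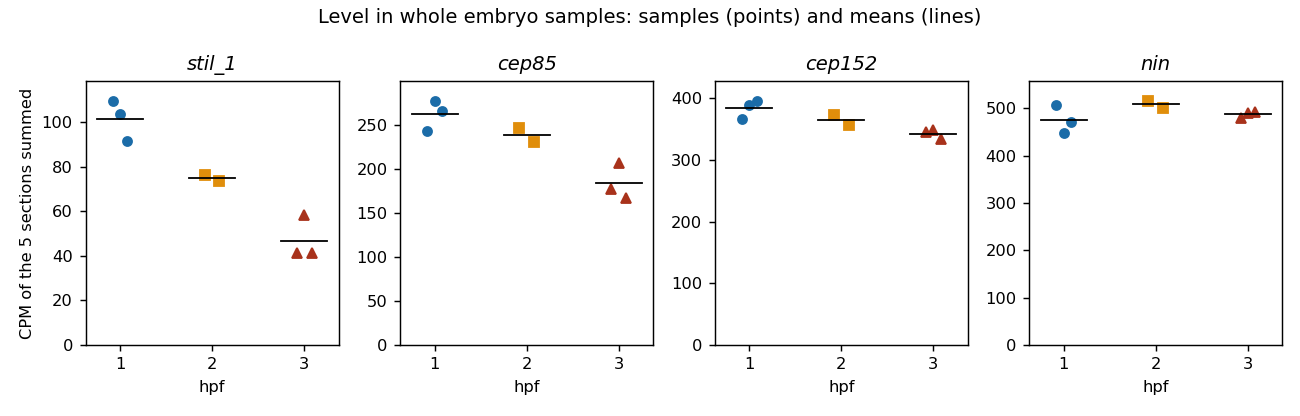
CPM of the 5 section libraries summed (y axes, linear from 0) in each embryo sample (points) at 1, 2 and 3 hpf (x axis) for 4 rows; lines are stage means. The 3 hpf samples lay below the 1 hpf samples for stil_1 and cep85, while nin lay between 448 and 517 CPM in all samples.

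From 1 to 2 hpf no row passed in edgeR, with 1 at an unadjusted p under 0.05, 0 called by DESeq2 and 0% of all genes called by edgeR. An unadjusted p under 0.05 was found in 402 of all 12667 genes tested. From 2 to 3 hpf none passed, with 6 at an unadjusted p under 0.05, 3 called by DESeq2 (stil_1, cep85 and ofd1) and 0.103% of all genes called by edgeR (0.0474% higher and 0.0553% lower). Here 1387 of all 12667 genes tested had an unadjusted p under 0.05. With the replicate number as a block 2 rows passed from 2 to 3 hpf, stil_1 at -0.61 ± 0.13 (edgeR adjusted p = 0.0447) and cep120, a gene of centriole elongation, at -0.32 ± 0.07 (edgeR adjusted p = 0.0423).

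The genes set aside were measured in the same fits. The pericentriolar scaffold gene pcnt had log2 fold changes of E over A of 1.43 ± 0.28, -1.64 ± 0.38 and -3.37 ± 0.26 at 1, 2 and 3 hpf. It had 673, 874 and 1564 CPM in E and 189, 279 and 689 CPM in A at 1 hpf, and 63.4, 104 and 175 CPM in E and 1204, 1082 and 1115 CPM in A at 3 hpf. At 1 hpf its C level was high as well, with a mean of 1370 CPM, as it was for nin. Its change from 1 to 3 hpf was -4.80 ± 0.50 and that of nin 0.14 ± 0.28. For cep350 the 3 values were -0.22 ± 0.07, -1.02 ± 0.12 and -0.60 ± 0.08, and for the centrin gene cetn3 0.19 ± 0.10, 0.18 ± 0.15 and -0.86 ± 0.14. These were chosen for their change and are given as description.

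A second list held 55 further centrosome gene symbols outside the naming rule, of which 37 were in the table with 41 rows. Of these rows 10 differed between E and A at 1 hpf (24.4%; 2 higher and 8 lower in E), 7 at 2 hpf (17.1%; 1 and 6) and 9 at 3 hpf (22%; 2 and 7), against 13.1, 9.99 and 15.6% of all genes. Lower in E at all 3 stages were tacc3 and ckap5, a pair that promotes microtubule growth, the kinase gene aurka, ccdc61 and rttn. For aurka the log2 fold change was -1.30 ± 0.09, -1.22 ± 0.10 and -1.57 ± 0.10 at 1, 2 and 3 hpf, and for tacc3 -1.21 ± 0.08, -1.20 ± 0.11 and -0.95 ± 0.11. Higher in E at all 3 stages was wdr62, a spindle pole gene, at 1.06 ± 0.09, 1.28 ± 0.15 and 1.68 ± 0.13. None of the 41 rows passed an edgeR test for a change of E minus A between stages or for a change of level between stages, with 6, 4 and 4 at an unadjusted p under 0.05 for the change of E minus A (3 minus 1, 2 minus 1 and 3 minus 2 hpf) and 5, 1 and 4 for the level. Among all genes tested these counts were 1387, 1014 and 1332 of 12668 for the change. For the level they were 1849, 402 and 1387 of 12667.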

How the data were processed

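The authors deposited whole-number read counts per gene for 40 section libraries (the unit is read from the file headers and values), and this count table alone was used. Each of its 12670 rows holds at least 60 counts over the libraries; the rule behind that is not given in the sources used here. The submitters' processing notes name the build GRCz11 and the tools HTSeq 2.0.4, STAR 2.7.11, DESeq2 and fastp 0.23.4, without their roles. Libraries were made strand-specific per the labels' protocols; the strand setting and annotation of the counting are not given, so reads of overlapping genes cannot be told apart. Symbols stand as deposited, and no sequence or coordinates are given.

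Tests on the counts used edgeR 4.0.16 under R 4.3.3 (with limma 3.58.1) and its quasi-likelihood test, TMM factors, its standard filter and Benjamini-Hochberg adjustment over all genes tested. Within a stage sections were compared with the replicate number as a block, since the labels give 1 biological replicate per number. A change between stages was an interaction term in a fit of the 40 libraries in which every embryo sample was a block (8 in all). Embryo sums were compared between stages with no block. CPM are counts over library total and TMM factor, times 1e+06. In the section tests with a block, the block takes out differences between embryo samples that all sections of a sample share. In replicate 2 at 2 hpf, sections E, B and A stood apart from D and C in cep44 and pcm1_1 levels. A single block term cannot take out such a split, which can enter the differences among sections and the remaining spread at that stage. The spread behind the p-values of these section tests is what then remains among the section libraries. For the embryo sums compared with no block, it is the spread among embryo samples. The code was run on simulated counts with the same spread for all genes and no differences between embryo samples. That run cannot check the blocks or the p-values of these data.

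Deviations of sections of 1 embryo sample from the section means correlated with a median of 0.652 at 1 hpf, 0.103 at 2 hpf and 0.581 at 3 hpf. Sums of same-numbered embryo samples of 1 and 3 hpf correlated at 0.68, 0.663 and 0.89. Between different numbers the medians were -0.0507, -0.0399 and -0.776 for numbers 1, 2 and 3. All these values are of deviations from stage means, which tie the numbers to each other. No label explains a number shared between stages. The stage sums were compared without this pairing, and only the alternative with the number as a block rests on this check.

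The genes, the lists and the tests were chosen with earlier results of these data known. Named genes were those called (at most 14 per comparison), a fixed set of centrosome genes, symbols with several rows, the genes set aside and the section checks. Of the fixed set haus2, haus8, cetn2, odf2b and cep55 have no row among those used. The rows cep44 and cep20 and the genes of the second list were named after their values were seen. Alternatives were other scaling, DESeq2 1.42.0, no filter, summed rows of a symbol, other blocks, 1 fit for all stages, and single replicates or libraries left out. At 2 hpf, with 2 replicates, leaving 1 out used the fit over all stages, which assumes that the lone sample varies like the others.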

Additional observations from a re-analysis of the deposited data

Results flagged for a closer look

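The difference between the vegetal section E and the animal section A changed between stages for haus6 and stil_1, by a test of the change itself. For haus6, the augmin subunit gene, the log2 fold change of E over A at 3 hpf minus that at 1 hpf was -0.82 ± 0.16 (edgeR adjusted p = 0.00779). E was below A in 3 of 3 embryo samples at 3 hpf, and above A in 2 of 3 at 1 hpf. For stil_1, the row of the centriole duplication gene stil, it was -0.98 ± 0.22 (edgeR adjusted p = 0.03). E was below A in 3 of 3 embryo samples at 3 hpf and in 2 of 3 at 1 hpf. The haus6 call was lost under 3 of 10 alternatives (no replicate block, and without replicate 1 or 3) and the stil_1 call under 5 of 10 (no replicate block, without each replicate, and without section A of 1 hpf replicate 1). Values ranged from -0.97 to -0.67 for haus6 and from -1.22 to -0.68 for stil_1. The depth of E was lower than that of A at 3 hpf, and the part of depth in these values was not tested.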

How the results depend on the processing

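Of the 57 results on single rows, 21 kept their call under every alternative run, among them cep152 and cep170ba at all 3 stages, nin at 1 and 3 hpf, and haus6 and stil_1 in E minus A at 3 hpf. None reversed direction. Of 599 alternatives of these results 91 lost the call, and the causes were not tested. Without the replicate block the E minus A calls of cep192, cntrl and haus5 were lost at 1 hpf. Those of cep135 and cntrl were lost at 2 hpf, and those of cdk5rap2, cep135, cep192, haus3_1 and tubgcp6 at 3 hpf.

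Counts of the 56 rows higher in E at 1 hpf (2 as reported) were 1 under library totals, without the replicate block, in 1 fit for all stages and without section A of 1 hpf replicate 1, and 1 to 2 with a replicate left out. Rows lower in E at 1 hpf (7) were 12 under library totals and 5 to 8 with a replicate left out. Rows higher at 2 hpf (1) were 0 without section E of replicate 2 and 0 to 1 with a replicate left out. Rows lower at 2 hpf (7) were 11 under library totals, 11 without replicate 2's C and D sections, 4 without its section E, and 8 to 9 with a replicate left out. Rows higher at 3 hpf (4) were 1 under library totals and 2 to 5 with a replicate left out. Rows lower at 3 hpf (10) were 18 under library totals, 5 without the replicate block and 6 to 8 with a replicate left out.

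Rows with any difference among sections were, at 1 hpf (8), 4 without the replicate block and 6 to 8 with a replicate left out. At 2 hpf (4) they were 9 by DESeq2, 10 in 1 fit for all stages, 7 without replicate 2's C and D sections, 2 without its section E and 6 to 14 with a replicate left out. At 3 hpf (10) they were 3 without the replicate block and 4 to 8 with a replicate left out. Rows with a change of E minus A from 1 to 3 hpf (2) were 4 by DESeq2, 0 without the replicate block, 1 without section A of 1 hpf replicate 1, and 0 to 1 with a replicate left out. From 2 to 3 hpf (0) they were 1 by DESeq2, 1 without the C and D sections of replicate 2 at 2 hpf, and 0 to 1 with a replicate left out. Rows with a change of level from 1 to 3 hpf (2) were 4 by DESeq2, 2 with the replicate block and 0 to 1 with a replicate left out. From 2 to 3 hpf (0) they were 3 by DESeq2 and 2 with the replicate block.

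Equal RNA input, 2 replicates at 2 hpf and the shallow E libraries at 3 hpf and of replicate 2 at 2 hpf limit these results. Rows with few counts such as cep162 and odf2a have wide errors.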
